A study of Mus musculus with 10 samples.

Results

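The 8 SMAD genes of the mouse (*Smad1*, *Smad2*, *Smad3*, *Smad4*, *Smad5*, *Smad6*, *Smad7* and *Smad9*) and the corepressor genes *Ski* and *Skil* were followed in RNA of reactive cholangiocytes, epithelial cells of bile ducts that proliferate after liver injury. The 10 genes were taken by symbol from the 49568 genes measured, and each symbol was found. Cells came from 5 *Ctl* mice, labelled *Smad4wt/wt*, and 5 *Smad4del* mice, which carried *Alb-Cre* and *Smad4fl/fl*, and 1 sample was measured per mouse. All mice were of mixed background and had received chow with 0.1% DDC for 2 weeks, which raises porphyrins and damages the bile ducts. *Ctl* mice lacked *Alb-Cre* by the study's methods, so the cohorts also differ in Cre, and whether their *Smad4* alleles were floxed is not settled by the sources. *Alb-Cre* acts in the hepatocyte and cholangiocyte lineage, so other liver cells keep *Smad4*. Livers were digested, and living cells with EPCAM on their surface, as epithelia have, but without CD45 of leukocytes or TER119 of red cells, were collected by FACS. The age of these mice was not used here. The comparison asks which parts of the SMAD machinery itself change at the RNA level when *Smad4* is deleted.

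SMAD proteins carry signals of the TGFβ superfamily from receptor to gene. Receptors phosphorylate the receptor-regulated SMADs (R-SMADs), SMAD2 and SMAD3 for TGFβ and activin, and SMAD1, SMAD5 and SMAD9 for BMP, and these join SMAD4, the shared co-SMAD, and enter the nucleus. The inhibitory SMADs (I-SMADs) SMAD6 and SMAD7 block the receptors or the R-SMADs and are themselves made in response to the signal, while SKI and SKIL (SnoN) bind SMAD complexes on DNA and repress their targets. In the liver this pathway restrains growth of epithelial cells and drives fibrosis.

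SMAD complexes bind short DNA sequences, and an element of this kind lies at the start site of *Smad6*. RefSeq promoter windows on GRCm38.p6, which run from 250 bases before to 50 bases after a start site, were matched by symbol for 6 of the 10 genes. *Smad2*, *Smad4*, *Smad7* and *Skil* were not matched. Of 3 motifs searched on both strands, the palindromic SMAD binding element GTCTAGAC was in the *Smad6* window and in no window of *Smad1*, *Smad3*, *Smad5*, *Smad9* or *Ski*. It begins 4 bases before the start site, and 0.213% of all 32851 windows hold it. The short site CAGAC, held by 49.6% of all windows, was found in 1 of 3 windows of *Smad5*. The GC-rich box GGCGCC, held by 11.9%, was found in windows of *Smad5*, *Smad9* and *Ski*, and none of the 3 motifs was found for *Smad1* or *Smad3*. The 3 motifs do not overlap in these windows, and a match describes the letters, not binding. The *Smad6* sequence is shown because this gene differed most between cohorts after *Smad4*. It is chr9:64022056-64022309 on the minus strand, from 250 bases before the start site to the end of the palindrome, whose letters are in capitals. The other matches are shown with 10 bases on either side for comparison, on the plus strand for *Smad5* and *Smad9* and the minus strand for *Ski*, at chr13:56703637-56703661, chr13:56703023-56703048, chr3:54755521-54755546 and chr4:155222740-155222765 in the order given.
Smad6: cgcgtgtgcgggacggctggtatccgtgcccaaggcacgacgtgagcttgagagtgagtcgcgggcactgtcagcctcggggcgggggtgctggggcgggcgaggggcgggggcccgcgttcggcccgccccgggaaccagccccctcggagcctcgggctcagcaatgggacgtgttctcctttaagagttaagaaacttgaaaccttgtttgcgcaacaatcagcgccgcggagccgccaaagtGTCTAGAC
Smad5, short site: tgcccaagttCAGACtccatcccct
Smad5, GC-rich box: ccggcgagcgGGCGCCgagcgcttgt
Smad9, GC-rich box: acggccgcctGGCGCCcttccagcgc
Ski, GC-rich box: gcgtggatgtGGCGCCgggcccgggc

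Of the 9 tested members 4 fell in *Smad4del* cells and 0 rose. They were *Smad4* itself, both I-SMADs and *Skil*, while the R-SMADs and *Ski* did not pass the test. The test was limma on log2(normalized count + 1) over the 14870 genes with a mean of at least 10, with Benjamini-Hochberg adjusted p under 0.05 as the threshold. In the same fit 4.69% of all tested genes were lower and 2.43% higher. Leaving aside *Smad4*, which was deleted, 3 of 8 tested members were lower. All 9 log2 fold changes were below 0, with a median of -0.49 beside -0.005 over all tested genes, of which 7527 were below 0. The 9 and their median include the deleted *Smad4* (-1.96). No member was higher at an unadjusted p under 0.05 by limma, edgeR or DESeq2 either. With each tool 6 members were lower at that threshold, *Smad5* and *Ski* beside the 4 named above. Of the 14870 genes, 4076 in limma, 3970 in edgeR and 4200 in DESeq2 reached it in either direction. *Smad9* did not reach the minimum mean and was not tested.

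Depth was alike in the cohorts, from 16249719 to 21277339 gene reads in a *Ctl* mouse and from 16734672 to 19710560 in a *Smad4del* mouse. None of 20 cholangiocyte markers, *Epcam* and *Krt19* among them, was at 0 in any mouse, and 3 of them were higher and 1 lower in *Smad4del* cells. Only 3 of the 20 had a fold change below 0, with a median of 0.22 on the log2 scale. Their summed level was 557488 to 771392 in *Ctl* and 777646 to 945924 in *Smad4del* mice, without overlap. Their mean log2 level, at 12.7 to 13.2 and 13.0 to 13.3, did overlap. RNA of other cell types was present too. Of 22 endothelial markers, 19 were lower and 0 higher in *Smad4del* cells, all 22 had a fold change below 0, none was at 0, and their summed level was 31993 to 82586 in *Ctl* and 11780 to 23996 in *Smad4del* mice. The summed level of 18 macrophage markers was 15151 to 302089 against 5751 to 88343, with 1 lower and 0 higher. All 18 had a fold change below 0, with a median of -2.51 on the log2 scale, and varied widely between mice. That of 12 mesenchymal markers was 30472 to 57758 against 20154 to 29096, with 2 lower and 0 higher. Of these 12, 11 had a fold change below 0, with a median of -0.88. Of 14 hepatocyte markers none passed the test, with sums of 31833 to 56957 and 41761 to 85832. Of these 14, 3 had a fold change below 0, with a median of 0.40. In such sorted bulk samples, fewer cells of a type and less RNA per cell cannot be told apart.

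**Figure D1:**
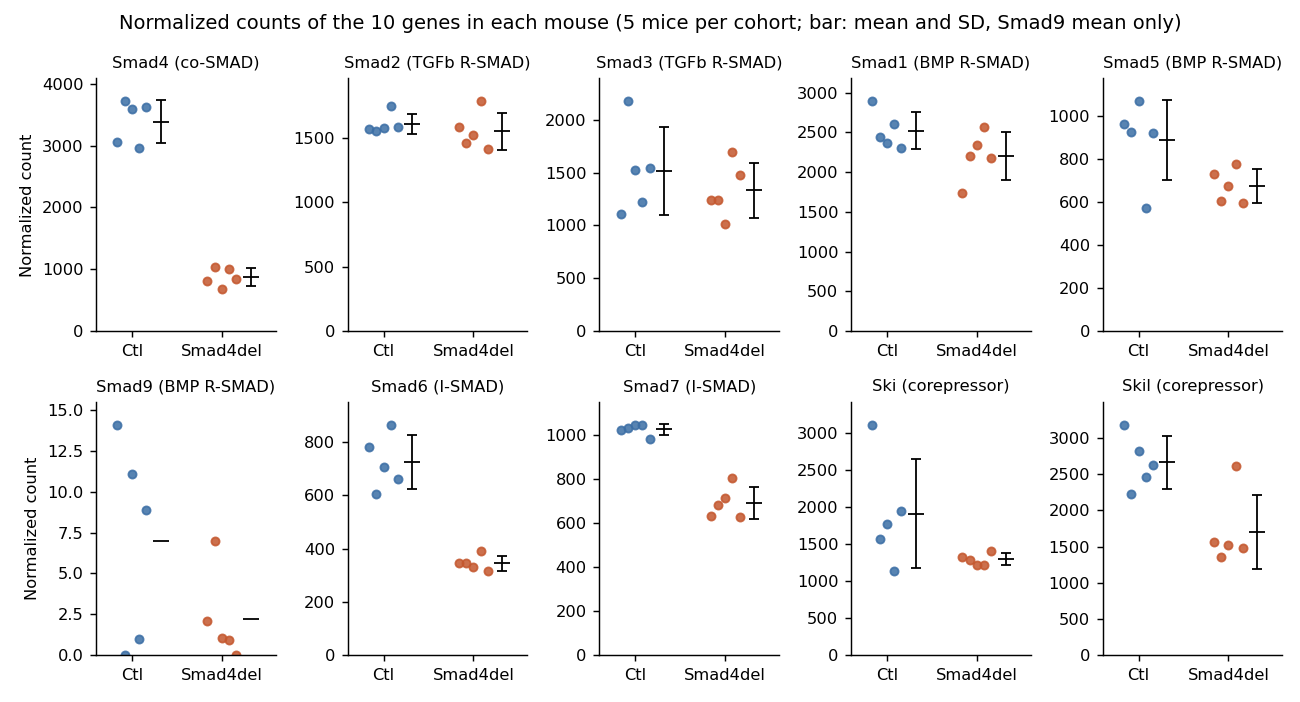
Normalized counts (vertical axes from 0, linear, scaled per gene) of the 10 genes in the 5 *Ctl* mice and the 5 *Smad4del* mice, each mouse as a point, next to the cohort's mean and SD (mean alone for *Smad9*). The cohorts do not overlap for *Smad4*, *Smad6* and *Smad7*, and for *Skil* they overlap through 1 *Smad4del* mouse at 2611.

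*Smad4* (chromosome 18, 73639009 to 73703780 of GRCm38, minus strand), the gene deleted here, was measured at 3058, 3714, 3584, 2969 and 3619 normalized counts in *Ctl* mice A5215, A5219, A5221, A5626 and A5628. In *Smad4del* mice A5216, A5217, A5218, A5447 and A5624 it stood at 812, 1031, 687, 1011 and 846, and this order of the mice is kept for all genes. Each *Smad4del* mouse lay below each *Ctl* mouse, with means of 877 ± 144 (SD, n = 5) and 3389 ± 347 (SD, n = 5). The log2 fold change was -1.96 (SE 0.123, adjusted p = 1.09e-05 from limma). *Smad4* RNA in *Smad4del* cells was thus 25.7% of that in *Ctl* cells (95% interval 21.4% to 31.0%). The counts are per gene, so reads inside and outside the deleted segment are not separated, nor are reads of sorted cells that still carry *Smad4*. The exact permutation test gave p = 0.00794, the smallest it can give with 5 mice against 5.

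The inhibitory *Smad6* showed the clearest difference among the genes that had not been deleted. *Smad6* (chromosome 9, 63953076 to 64022059, minus strand), whose product acts mainly against BMP signalling, was at 783, 604, 707, 864 and 662 normalized counts in *Ctl* mice and at 345, 345, 331, 390 and 314 in *Smad4del* mice. No *Smad4del* mouse came near the lowest *Ctl* mouse. The means were 724 ± 102 (SD, n = 5) and 345 ± 28.1 (SD, n = 5), a log2 fold change of -1.06 (SE 0.124, adjusted p = 9.69e-04 from limma), or 48.0% of the *Ctl* level (95% interval 39.8% to 57.9%). By its p-value *Smad6* stood at rank 32 of 14870 genes, and at rank 27 among those with a lower level. The palindrome printed above lies at the start site of this gene. Whether it bears on the difference was not tested, and *Smad7* and *Skil* had no window to compare.

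*Smad7* (chromosome 18, 75367529 to 75395935, plus strand), which encodes the inhibitor of both TGFβ and BMP receptors, fell as well but by less. It was at 1021, 1033, 1044, 1044 and 979 normalized counts in *Ctl* mice, a spread of only 2.63% of the mean, and at 629, 680, 713, 804 and 627 in *Smad4del* mice. The cohorts again did not overlap. Means were 1024 ± 26.9 (SD, n = 5) and 691 ± 72.9 (SD, n = 5), and the log2 fold change was -0.57 (SE 0.094, adjusted p = 0.00599 from limma), or 67.2% of *Ctl* (95% interval 58.3% to 77.5%). *Smad4*, *Smad6* and *Smad7* were the 3 members without overlap. Over all tested genes, 4.59% were lower without overlap. Each of these 3 genes passed the test in all 10 fits that left out 1 mouse, with adjusted p of at most 1.19e-04, 0.00491 and 0.0213. With the level of endothelial markers as a covariate none of them passed (adjusted p = 0.112, 0.907 and 0.913 from limma), with log2 fold changes of -1.97, -0.82 and -0.62.

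Without a covariate, the difference was larger for *Smad6* than for *Smad7*. Within each mouse the log2 ratio of *Smad6* to *Smad7*, which does not depend on the size factor, was -0.77 to -0.27 in *Ctl* mice and -1.11 to -0.86 in *Smad4del* mice. The difference between the cohort means was -0.49 (SE 0.0948), and the cohorts did not overlap. The exact permutation test gave p = 0.00794, adjusted p = 0.0159 over the 6 ratios compared. Ratios with *Smad4*, the deleted gene, are among the 6, and their small p-values lower this adjusted p.

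The corepressors gave a less stable result. *Skil* (chromosome 3, 31095058 to 31122577, plus strand), which encodes SnoN, was at 3181, 2230, 2821, 2467 and 2622 normalized counts in *Ctl* mice and at 1562, 1349, 1517, 2611 and 1480 in *Smad4del* mice. Of the *Smad4del* mice 4 lay below every *Ctl* mouse, while A5447 lay within the *Ctl* range. Means were 2664 ± 361 (SD, n = 5) and 1704 ± 513 (SD, n = 5), with a log2 fold change of -0.68 (SE 0.167, adjusted p = 0.0334 from limma). This is 62.5% of *Ctl* (95% interval 48.6% to 80.5%), and the exact permutation test gave p = 0.0238. The call, more than the size of the difference, rests on single mice and on the tool. It was kept in 2 of 10 fits that left out a mouse, those without A5219 or without A5447, where the adjusted p was as low as 0.00225. It was lost without any of the other 8 mice (A5215, A5221, A5626, A5628, A5216, A5217, A5218 or A5624), with adjusted p up to 0.0873 and log2 fold changes of -0.70 to -0.60. The adjusted p from edgeR was 0.0557 (log2 fold change -0.63) and that from DESeq2 0.00578, in a fit in which DESeq2 called 8.68% of all genes lower.

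*Ski* (chromosome 4, 155154075 to 155222592, minus strand) did not pass the test. Its normalized counts were 3100, 1557, 1772, 1136 and 1945 in *Ctl* mice and 1321, 1284, 1215, 1212 and 1407 in *Smad4del* mice. The *Ctl* values were widely spread, with A5215 high and A5626 below all *Smad4del* mice, whereas the *Smad4del* values lay close together. A5215 also had the highest endothelial, macrophage and mesenchymal marker levels of all mice. After the cohort means were subtracted, *Ski* followed the mesenchymal level over the 10 mice (Pearson r = 0.835). This was the highest correlation of any tested member with any marker level, and *Smad5* had 0.598 with the mesenchymal level. With the endothelial level, *Ski* had 0.557, *Skil* 0.552, *Smad6* 0.414, *Smad4* -0.0166 and *Smad7* -0.137. The part of other cell types in the spread of *Ski* was not tested. Means were 1902 ± 735 (SD, n = 5) and 1288 ± 81.2 (SD, n = 5), a log2 fold change of -0.49 (95% interval -0.94 to -0.03, adjusted p = 0.155 from limma). Without A5215 it was -0.29 (adjusted p = 0.258). The log2 ratio of *Ski* to *Skil* was -1.12 to -0.04 in *Ctl* and -1.11 to -0.07 in *Smad4del* mice, a difference of 0.19 (SE 0.26, exact permutation p = 0.468, adjusted p = 0.562). A difference between the corepressors was therefore not detected.

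**Figure D2:**
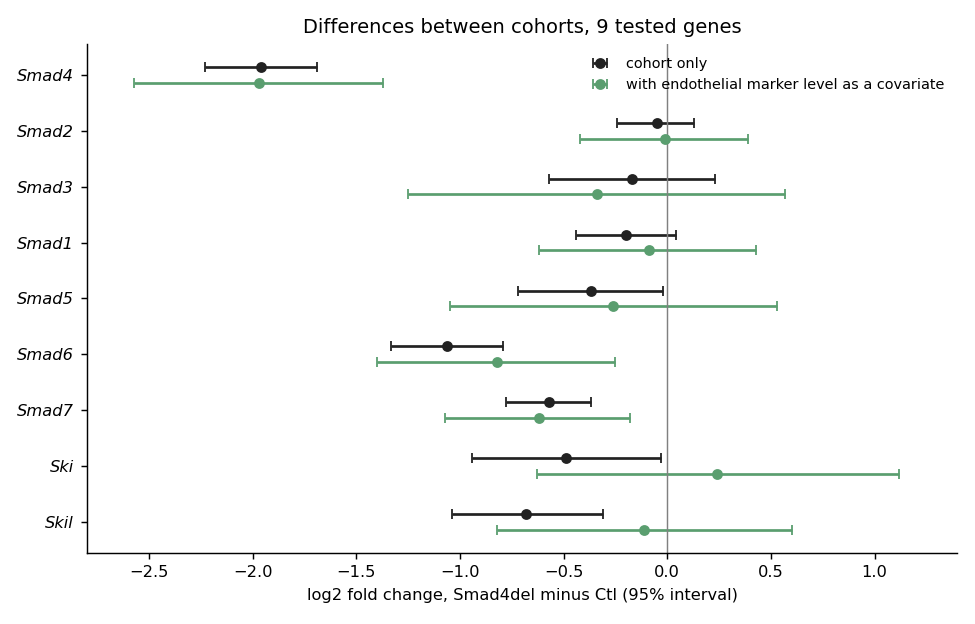
Log2 fold changes (horizontal axis, *Smad4del* minus *Ctl*) of the 9 tested genes with 95% intervals, from limma with the cohort as the only term (black) and with the level of endothelial markers as a covariate (green). With the covariate, *Smad4* (-1.97), *Smad6* (-0.82) and *Smad7* (-0.62) keep intervals below 0, and *Skil* (-0.11) and *Ski* (0.24) have intervals across 0. The intervals are not adjusted for the number of genes tested, and with the covariate no gene passed the adjusted threshold.

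None of the R-SMADs passed the test in either direction. The nearest to no difference was *Smad2* (chromosome 18, 76241580 to 76310963, plus strand), a TGFβ R-SMAD, at 1573, 1553, 1580, 1750 and 1588 normalized counts in *Ctl* and 1585, 1459, 1524, 1784 and 1417 in *Smad4del* mice. The *Ctl* range lay within that of the *Smad4del* mice, 3 of which were below it, and the log2 fold change was -0.05 (95% interval -0.24 to 0.13, adjusted p = 0.715 from limma). *Smad3* (chromosome 9, 63646767 to 63757994, minus strand), the other TGFβ R-SMAD, varied more from mouse to mouse, at 1112, 2173, 1526, 1221 and 1544 in *Ctl* and 1245, 1243, 1010, 1690 and 1473 in *Smad4del* mice. The log2 fold change was -0.17 (95% interval -0.57 to 0.23, adjusted p = 0.584 from limma), an interval wide enough to hold a level of 67.4% of *Ctl*. It was -0.027 without A5219, the highest *Ctl* mouse, and -0.27 without A5215.

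Among the BMP R-SMADs, *Smad1* (chromosome 8, 79338395 to 79399518, minus strand) was at 2888, 2437, 2364, 2599 and 2305 normalized counts in *Ctl* and 1733, 2203, 2335, 2569 and 2174 in *Smad4del* mice. The lowest value was that of *Smad4del* mouse A5216, and 3 *Smad4del* mice lay below the *Ctl* range. Its log2 fold change was -0.20 (95% interval -0.44 to 0.04, adjusted p = 0.255 from limma). *Smad5* (chromosome 13, 56703010 to 56742377, plus strand) was at 961, 924, 1068, 574 and 920 in *Ctl* and 730, 606, 673, 777 and 594 in *Smad4del* mice. Here *Ctl* mouse A5626 lay below all *Smad4del* mice and the other 4 *Ctl* mice above them. The log2 fold change was -0.37 (95% interval -0.72 to -0.02, adjusted p = 0.16 from limma), and without A5626 it was -0.52 (adjusted p = 0.031). A misc_RNA gene, Gm27301, shares 100 bases of *Smad5* exon on the same strand, 1.3% of its exons.

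*Smad9* (chromosome 3, 54755582 to 54801257, plus strand), the remaining BMP R-SMAD, was hardly detected. It had 13, 0, 12, 1 and 8 reads in *Ctl* mice and 2, 7, 1, 1 and 0 in *Smad4del* mice, with 0 reads in 1 mouse of each cohort. With a mean of 4.61 normalized counts over all mice it was below the minimum. A fit without that minimum gave a log2 fold change of -1.04 (SE 0.861, adjusted p = 0.616 from limma), so a difference was not detected with these few reads.

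**Figure D3:**
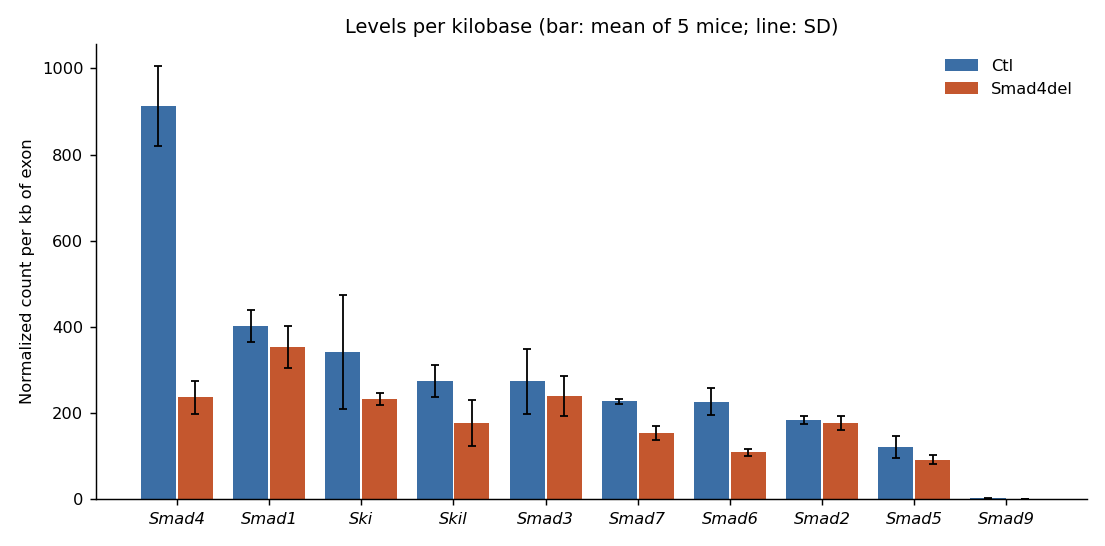
Normalized count per kilobase of annotated exon (vertical axis, from 0) of each gene in *Ctl* and *Smad4del* cells, as the mean of 5 mice with its SD. *Smad4* leads in *Ctl* cells at 913 and is at 236 in *Smad4del* cells, near *Smad3* and *Ski*, while *Smad9* is at 1.31 and 0.41.

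Levels were compared between genes as normalized counts per kilobase of annotated exon. In *Ctl* cells *Smad4* was the most abundant member at 913 ± 93.6 per kilobase (SD, n = 5), above *Smad1* at 402 ± 37.4, and their ranges did not overlap. Then followed *Ski* at 342, *Skil* at 275, *Smad3* at 273, *Smad7* at 227, *Smad6* at 226 and *Smad2* at 183 per kilobase, where each neighbour overlapped the next. *Smad5* came below all of these at 120 and *Smad9* last at 1.31, both without overlap with the gene above. In *Smad4del* cells the order of the levels was *Smad1* at 352, *Smad3* at 240, *Smad4* at 236, *Ski* at 232, *Smad2* at 177, *Skil* at 176, *Smad7* at 153, *Smad6* at 108, *Smad5* at 91.1 and *Smad9* at 0.41 per kilobase. Neighbours were separate there only between *Ski* and *Smad2*, *Smad7* and *Smad6*, and *Smad5* and *Smad9*. With exons of basic transcripts only, *Skil* was at 396 per kilobase in *Ctl* cells, and *Ski* and *Skil* changed places, as did *Smad6* and *Smad7*. In *Smad4del* cells *Skil* then stood at 254, above *Smad4* at 245, *Ski* and *Smad2*, while *Smad7* stayed above *Smad6*.

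The balance between the classes is described here without a test. Per kilobase, *Smad4* made up 30.8% of the summed level of the 10 genes in *Ctl* cells (range 26.1% to 33.2%) and 13.4% in *Smad4del* cells (at least 11.3% in each mouse). Its level was 0.931 times that of all R-SMADs together in *Ctl* cells (0.846 to 1.02) and 0.275 times in *Smad4del* cells (0.226 to 0.337). The I-SMADs together were at 0.464 times the R-SMADs in *Ctl* (0.385 to 0.549) and 0.303 times in *Smad4del* cells (0.277 to 0.318). BMP R-SMADs stood to TGFβ R-SMADs as 1.17 in *Ctl* (0.903 to 1.56) and 1.07 in *Smad4del* cells (0.927 to 1.30), ranges that overlap.

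These sums were not tested, but ratios of single gene pairs within each mouse were. The log2 ratio of *Smad4* to *Smad2* was 0.76 to 1.26 in *Ctl* mice and -1.15 to -0.50 in *Smad4del* mice, a difference of -1.90 (SE 0.142). For *Smad4* to *Smad1* it was 0.08 to 0.65 against -1.76 to -1.09, a difference of -1.76 (SE 0.171). Both had an exact permutation p = 0.00794 and an adjusted p = 0.0159, and both carry the fall of *Smad4* already given. Within the R-SMADs no shift was detected, with differences of 0.11 (SE 0.216, exact permutation p = 0.611) for *Smad2* to *Smad3* and 0.17 (SE 0.212, exact permutation p = 0.413) for *Smad1* to *Smad5*.

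**Figure D4:**
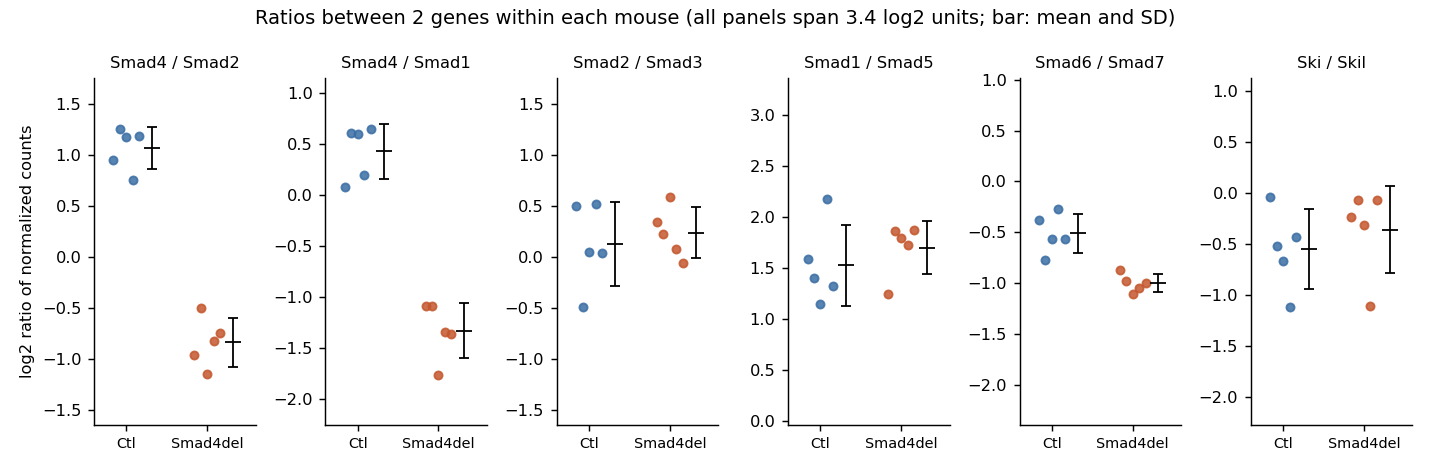
Log2 ratio of 2 genes within each mouse (vertical axes, same span, not starting at 0) for the 6 ratios compared, each point a mouse, next to the cohort's mean and SD. The cohorts are separate for *Smad4* to *Smad2*, *Smad4* to *Smad1* and *Smad6* to *Smad7* and overlap for the other 3.

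The endothelial marker level moved with the cohort. The mean log2 level of the 22 markers was 9.94 to 11.2 in *Ctl* mice and 8.43 to 9.52 in *Smad4del* mice, with no overlap, so that covariate and cohort are largely tied. With it in the fit, 0 of 14870 genes passed in limma (714 at an unadjusted p under 0.05, smallest adjusted p = 0.112) and 0 members (3 at an unadjusted p under 0.05). *Smad4* kept a log2 fold change of -1.97 (95% interval -2.57 to -1.37), *Smad6* was at -0.82 (-1.40 to -0.25) and *Smad7* at -0.62 (-1.07 to -0.18). *Skil* was at -0.11 (-0.82 to 0.60), an interval that still holds its value without the covariate, and *Ski* at 0.24 (-0.63 to 1.12). With the macrophage level as covariate, *Smad6* (-0.97, adjusted p = 0.011) and *Smad7* (-0.61, adjusted p = 0.028) still passed in limma and *Skil* (-0.74, adjusted p = 0.0829) did not, while *Smad3* moved from -0.17 to -0.45 (95% interval -0.88 to -0.02, adjusted p = 0.202). With the mesenchymal level as covariate, a fit chosen after seeing the data, limma called only *Smad4* of the members (-1.97, adjusted p = 0.00189). *Smad6* (-1.11, adjusted p = 0.0584) and *Smad7* (-0.58, adjusted p = 0.269) kept their size, and *Skil* was at -0.48 (adjusted p = 0.71). *Ski* moved to 0.14 (95% interval -0.29 to 0.57) in that fit. *Smad5* moved to -0.05 (-0.52 to 0.42), an interval that still holds its value without the covariate.

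**Figure D5:**
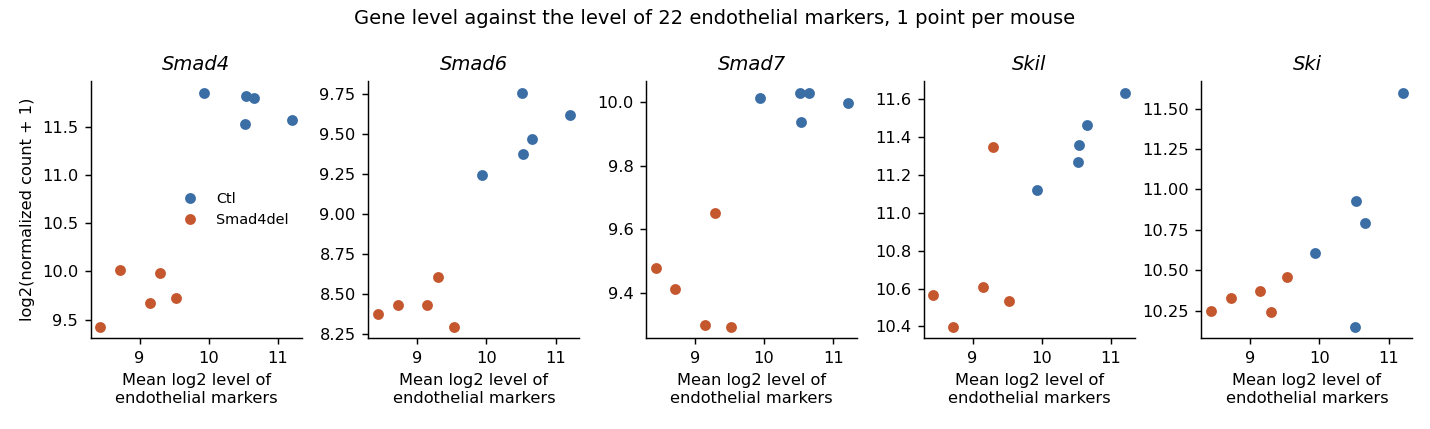
Level of 5 members on the vertical axes (log2 of the normalized count plus 1, axes cut above 0) against the mean log2 level of 22 endothelial markers (horizontal axes), with 1 point per mouse. *Ctl* mice (9.94 to 11.2) and *Smad4del* mice (8.43 to 9.52) do not overlap on the horizontal axes, and 1 *Smad4del* mouse, A5447, lies within the *Ctl* range of *Skil*.

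The other genes of the pathway were described by lists written from general knowledge, but with earlier results of these data known. The shares of called genes in these lists are therefore descriptions, not independent support. Regulators and cofactors of SMADs, such as ubiquitin ligases, phosphatases and nuclear corepressors, had 1 of 42 tested lower and 1 higher, near or below the 4.69% and 2.43% over all genes. The other 40 did not pass, with *Mecom* (-1.27) and *Foxh1* (1.15) at the ends of their log2 fold changes, and the median over the list was -0.05. *Foxh1* was near the minimum mean, at 9.18 normalized counts in *Ctl* and 16.8 in *Smad4del* mice (SE of the log2 fold change 0.747). *Pmepa1*, which encodes a membrane protein that sequesters R-SMADs, fell from 1221 ± 132 to 547 ± 93.4 normalized counts (log2 fold change -1.17, adjusted p = 9.79e-04 from limma) with no overlap, beside -1.06 for *Smad6*. *Prdm16*, a transcription factor that can bind SKI, rose from 166 ± 30.3 to 312 ± 97.6 (0.87, adjusted p = 0.0464 from limma), with overlap of the cohorts. *Smurf1* and *Smurf2*, ligases that work with I-SMADs, did not pass, at -0.49 (adjusted p = 0.138) and -0.32 (adjusted p = 0.194) on the log2 scale.

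Of 12 tested receptors of the superfamily 6 were lower and 0 higher, with a median log2 fold change of -0.87. They were *Eng* (-1.81), *Tgfbr1* (-1.04), *Tgfbr3* (-1.95), *Acvr1* (-0.84), *Acvrl1* (-1.05) and *Bmpr2* (-0.89). *Eng* and *Acvrl1* encode receptors typical of endothelial cells, whose markers were lower in the same mice, and the part of those cells in the receptor results was not tested. Of 14 tested ligands 2 were lower, *Bmp2* (-1.56) and *Tgfb1* (-1.15), and 0 higher, with a median of -0.09. Genes known to respond to SMAD signals had 7 of 24 tested lower, 0 higher and a median of -1.35, where 4.69% of all genes were lower. The endothelial markers were lower in the same mice, and their part in the ligand and response lists was not tested. *Ltbp2* (-2.82), *Lmcd1* (-2.36) and *Id1* (-2.40) are examples of response genes, all larger on the log2 scale than the differences of *Smad6* and *Smad7*. The other 17 response genes did not pass in limma. *Ctgf* (-0.25, adjusted p = 0.294), *Cdkn1a* (-0.59, adjusted p = 0.128) and *Cdkn2b* (-0.79, adjusted p = 0.139) were among them. The paper, which used DESeq2, named *Cdkn1a* and *Cdkn2b* together with *Id1* and *Id3* among its differentially expressed genes. Here *Id1* (-2.40, adjusted p = 2.37e-05) and *Id3* (-2.11, adjusted p = 2.20e-04) passed in limma. Why *Cdkn1a* and *Cdkn2b* did not was not tested.

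Genes that varied most like a member across mice were found by the Pearson correlation of log2 values over the 10 mice after the mean of each cohort was subtracted, as a description without a test. For *Smad4* these were *Inha* (r = 0.97, Spearman's rho 0.939), *Fam179b* (r = 0.949) and *Zfand4* (r = 0.942), for *Smad6* Gm12328 (r = 0.935), *Dck* (r = 0.914) and *Scmh1* (r = 0.906), and for *Smad7* *Cnnm4* (r = 0.931), *Ier5l* (r = 0.909) and *Taok1* (r = 0.907). For *Skil* they were *Zfp131* (r = 0.969), *Rab35* (r = 0.958) and *C1s2* (r = 0.957). With 10 mice and 14870 genes, high values arise in any search of this kind. No member was among the 3 genes most like another.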

How the data were processed

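For the deposited signal values (DESeq2-normalized counts), the authors used Trimmomatic 0.36 for trimming, STAR for alignment to GRCm38.p5 and featureCounts for counts per GENCODE M12 gene, which DESeq2 1.14.1 in R 3.3.2 then divided by 1 size factor per mouse. Counts of uniquely aligned reads and counts with multi-mapping reads were made, and the sources used here do not say which was deposited. The labels also name mm9, a cell line and a culture protocol. Nothing was corrected for gene length. All values were whole multiples of the value of 1 read (tolerance 1e-06). In A5217 this step is near 1, so count tests are alternatives only, run with and without this mouse.

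Genes with a mean of at least 10 were tested with limma 3.58.1 (trended prior, R 4.3.3) on log2(normalized count + 1), Benjamini-Hochberg threshold 0.05. Single genes and ratios had exact two-sided permutation tests. Alternatives were pseudocounts 0.5 and 10, no minimum and a minimum of 50, median and quantile scaling, edgeR 4.0.16, DESeq2 1.42.0, endothelial and macrophage marker covariates and leaving out each mouse. The tests were tested on simulated data. Positions and exon lengths are of GENCODE M21 on GRCm38. Exon lengths of basic transcripts, a mesenchymal covariate and a block of mouse-number runs were added as alternatives after seeing the data. The members and lists were chosen with earlier results of these data known. Named were all members, up to 6 called genes per list and direction, of which some are described, and the 3 genes most like each member, described for 4 members. Some list genes that did not pass are described as well. Sex, litter and batch are not in the labels.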

Additional observations from a re-analysis of the deposited data

Results flagged for a closer look

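In 32 groups of 5 mice tested for a mouse far from the others (Dixon's test, gap over range above 0.71), 4 were flagged, and chance flags about 1 in 20 groups. *Skil* in *Smad4del* mouse A5447 was at 2611 normalized counts, above the next highest at 1562 (gap over range 0.831). In the same mouse the log2 ratio of *Ski* to *Skil* was -1.11, with the next lowest at -0.32 (0.759). *Smad2* in *Ctl* mouse A5626 was at 1750 normalized counts, with the next highest at 1588 (0.823), although the whole *Ctl* range of this gene is narrow. The log2 ratio of *Smad1* to *Smad5* in *Smad4del* mouse A5216 was 1.25, with the next lowest at 1.72 (0.764).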

How the results depend on the processing

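*Smad4*, *Smad6* and *Smad7* remained lower past the threshold under each alternative but the endothelial covariate and, for *Smad6* and *Smad7*, the mesenchymal covariate, and 0 members were higher under each. With the endothelial covariate 0 members and 0 genes passed in either direction, beside 3 members and 714 genes at an unadjusted p under 0.05. Without 1 mouse, 3 to 4 members were lower. Over all genes, the main 362 higher and 697 lower became 893 and 1290 with DESeq2, 89 and 265 with edgeR on 9 mice, 113 and 335 with the macrophage covariate, and 2 and 19, with 1 member lower, with the mesenchymal covariate. The higher genes became 209 without the minimum, 626 with median scaling and 579 with quantile normalization, which moved the share of higher calls from 34.2% to 49.5% and 48.8% and the median of all genes from -0.005 to 0.06 and 0.083. Without 1 mouse, 99 to 564 genes were higher and 324 to 841 lower, the fewest of both without A5217. Signs changed for *Smad2* with median scaling (0.012), for *Ski* with the endothelial (0.24) and mesenchymal (0.14) covariates and for the log2 ratio of *Smad2* to *Smad3* without A5219 (-0.04, with 0.03 to 0.21 without any other mouse), none of which had passed a test, and the cause was not tested. *Smad9* had too few reads for the main test. Littermates served as controls where possible, but the labels name no litters and the cohorts share no replicate numbers. Runs of mouse numbers (A52, A54 and A56) as a block, chosen after seeing the data, gave 426 higher and 718 lower genes and the same count of 4 lower members. A5447, alone in its run, adds nothing to that fit, and *Skil* was at -0.85 (adjusted p = 0.00463).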
